A study of Mus musculus with 8 samples.

Results

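The transcripts described here belong to 10 immediate early genes, namely the AP-1 subunit genes Fos, Fosb, Fosl2, Jun, Junb and Jund, together with Egr1, Ier2, Ier3 and Dusp1. They were taken as every probe set whose platform annotation gives 1 of these symbols and no other, which selected 13 probe sets of 45101 on the array. Fosl2, Jun and Jund had several probe sets each, and these were kept apart and are named by their array IDs. In RefSeq, assembly GRCm38.p6, Junb, Jund and Ier2 lie on chromosome 8, Ier3 and Dusp1 on 17, Fos on 12, Fosb on 7, Fosl2 on 5, Jun on 4 and Egr1 on 18. Liver RNA of 8 male C57BL/6 mice aged 92 to 101 days was hybridised to Affymetrix arrays, 1 array per liver. The labels assign 4 livers to genotype MTAP+/-, with 1 altered copy of Mtap, and 4 to genotype MTAP+/+. Mtap encodes the enzyme that salvages methylthioadenosine, a by-product of polyamine synthesis. The labels used here do not state the nature of the altered allele or whether the mice shared litters, killing times or array batches. The values are RMA signals on a log2 scale, and every change below is MTAP+/- minus MTAP+/+. A signal depends on its own probes, so levels are compared between livers and not between probe sets.

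Immediate early genes are transcribed within minutes of a growth factor, cytokine or stress signal, without new protein synthesis. MAP kinases and cyclic AMP signalling act on factors already bound at their promoters, including SRF with its ternary complex partners and CREB. FOS and JUN proteins pair through leucine zippers to form AP-1, EGR1 is a zinc finger activator, and DUSP1 is a phosphatase that switches off the MAP kinases that induced it. In liver these genes are known for their rapid response to partial hepatectomy, injury and tissue handling.

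The promoters of Fos and Dusp1 are shown because these genes had the highest and the lowest change of the 10 and because both hold a cyclic AMP response motif. The sequences are from RefSeq, assembly GRCm38.p6, and give the 250 bases before the annotated start, 5′ to 3′ on the strand of the gene. Fos lies at chr12:85473640-85473889 on the plus strand and Dusp1 at chr17:26508473-26508722 on the minus strand. Capitals mark matches on either strand to TGACGT, the core of the cyclic AMP response element, to its full form TGACGTCA, which contains the core on both strands, and to the TATA motif TATAAA.
Fos: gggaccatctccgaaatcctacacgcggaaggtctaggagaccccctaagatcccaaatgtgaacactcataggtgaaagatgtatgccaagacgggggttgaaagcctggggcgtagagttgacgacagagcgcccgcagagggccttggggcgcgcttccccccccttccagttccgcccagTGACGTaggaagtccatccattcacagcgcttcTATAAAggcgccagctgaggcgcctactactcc
Dusp1: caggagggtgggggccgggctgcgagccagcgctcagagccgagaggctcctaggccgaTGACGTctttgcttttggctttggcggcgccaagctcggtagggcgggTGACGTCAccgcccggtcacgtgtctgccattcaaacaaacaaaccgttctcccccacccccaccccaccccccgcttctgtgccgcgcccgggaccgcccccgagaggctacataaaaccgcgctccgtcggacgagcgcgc
In Fos the core motif began 66 bases and the TATA motif 33 bases before the start. In Dusp1 the full element began 143 bases before the start and a further core motif 191 bases before it. RefSeq entries were used for 8 of the 10 genes, all but Egr1 and Ier2. The core motif was in 2 of these 8 windows, those of Fos and Dusp1, and in 6.47% of 32851 promoter windows of the same length. The full element was in 1 of the 8 and in 1.55% of all windows, and TATAAA was in 1 of the 8 and in 12.4% of all. The AP-1 motif TGANTCA was in 0 of the 8 windows and in 6.75% of all, and the SRF motif known as the CArG box was in 0 of the 8 and in 1.47% of all. The EGR motif GCGNGGGCG was in the windows of Fosb and Fosl2 and in 4.70% of all. Only these 250 bases were searched, so a motif absent here can still lie further from the start, and Egr1 and Ier2 were not read. These matches describe letters and were not tested against the signals.

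Mtap itself was lower in the MTAP+/- livers. Its 4 probe sets were at 57.6%, 49.9%, 32.2% and 35.3% of the MTAP+/+ level (adjusted p from 0.00443 to 0.0414 by limma), and the genotypes did not overlap at any of them. The 7 hepatocyte marker genes measured were above the median level of all probe sets, with a summed linear signal of 85622 to 92528 in MTAP+/- and 86292 to 92192 in MTAP+/+ livers. Replicate 2 of MTAP+/- stood apart from the other arrays on the second principal component of all probe sets (-44.1, the others from -14.8 to 29.5). It also had the smallest 3' minus 5' signal, a measure of RNA quality taken from the Gapdh and Actb control probe sets (0.713, the others from 0.880 to 1.12). Degraded RNA gives larger values on this measure.

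None of the 13 probe sets passed the threshold of 0.05 after Benjamini-Hochberg adjustment over 45037 probe sets (limma), where 16 probe sets, or 0.0355%, passed. At an unadjusted p under 0.05 limma listed 4 of the 13, which were Fos, Junb, Egr1 and Ier3, all with higher means in MTAP+/- livers. That is 30.8% of the 13 probe sets, beside 8.41% of all probe sets in either direction and 4.56% in the higher direction. The genotypes did not overlap at 3 of the 13 (Fos, Ier3 and 1 probe set of Jund), beside 4.35% of all probe sets. The signs were mixed, with 7 of the 13 log2 changes above 0 beside 47.3% of all, and the median change was 0.06 beside -0.01 over all probe sets. The 10 genes were chosen with earlier results of these data known, so these shares are descriptions, and the 95% intervals below are not adjusted for the number of probe sets.

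**Figure D1:**
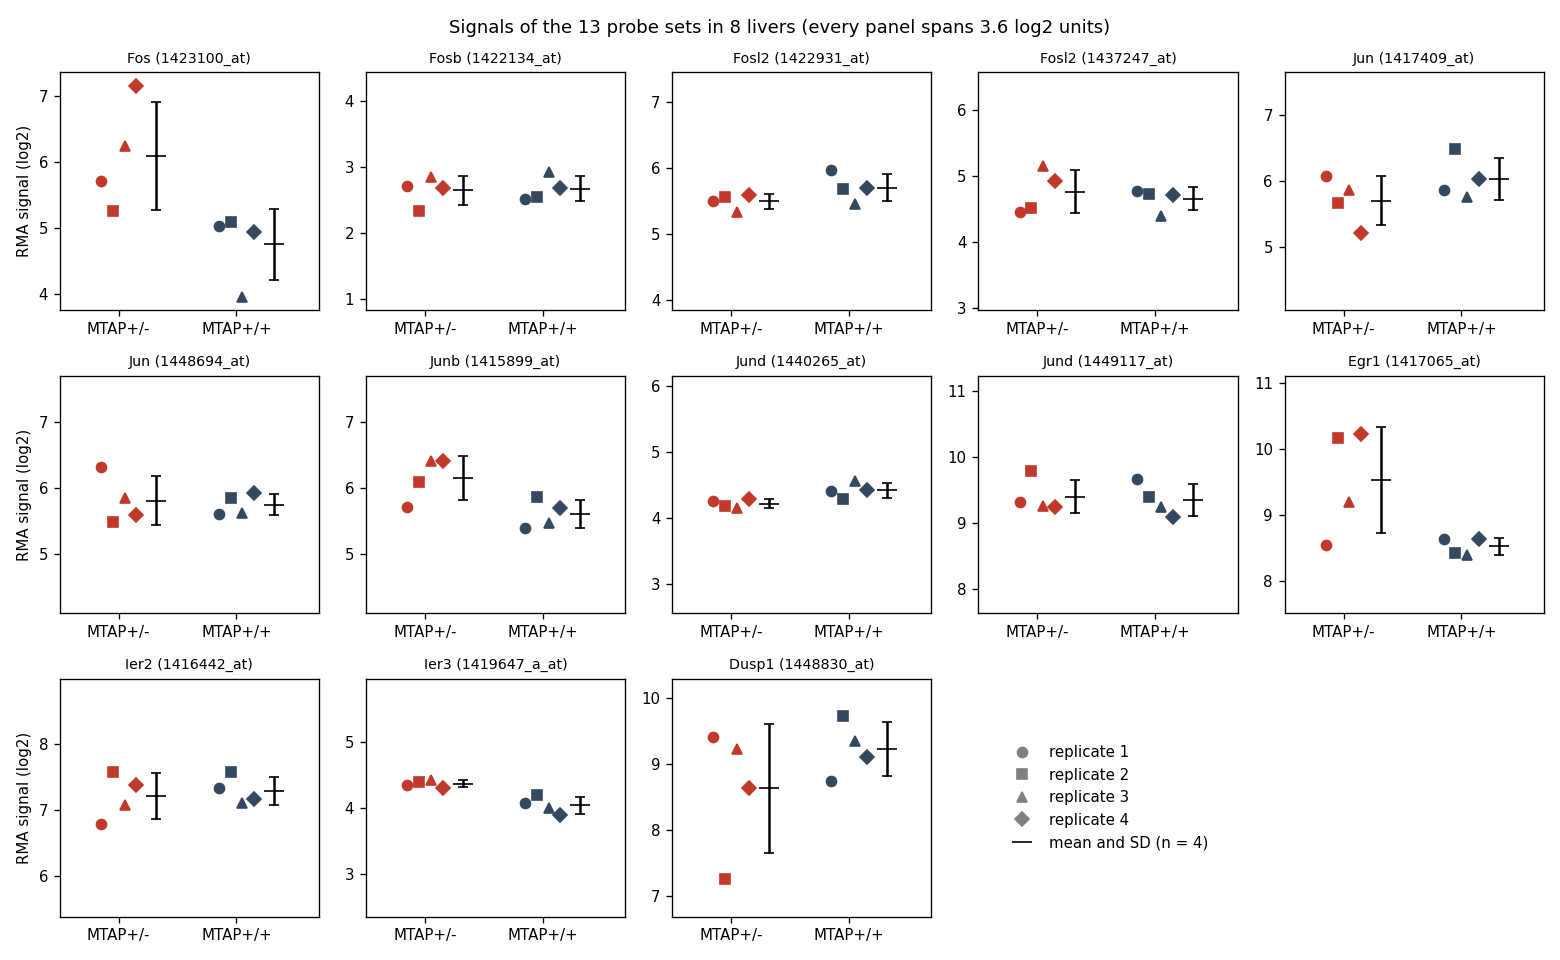
RMA signals (log2, vertical axis) of the 13 probe sets in 4 MTAP+/- livers (left, red) and 4 MTAP+/+ livers (right, blue), 1 symbol per replicate number, with the mean and SD beside each group. Every panel spans the same number of log2 units, so the wide spread of Fos, Egr1 and Dusp1 in MTAP+/- livers can be read against the tight groups of Ier3 and of Jund at 1440265_at.

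Fos, the founding partner of JUN in AP-1, had the largest log2 change of the 13 probe sets. Its signals were 5.72, 5.26, 6.25 and 7.16 in MTAP+/- replicates 1 to 4, against 5.04, 5.10, 3.96 and 4.95 in MTAP+/+ replicates 1 to 4. Every MTAP+/- liver was above every MTAP+/+ liver, but replicate 2 of MTAP+/- cleared the highest MTAP+/+ liver by little, and MTAP+/+ replicate 3 lay far below the rest of its group. The means were 6.10 ± 0.82 and 4.76 ± 0.54 (SD, n = 4 each), a log2 change of 1.34 with a 95% interval of 0.50 to 2.17, or 2.52-fold (limma, unadjusted p = 0.00495, adjusted p = 0.372). The exact two-sided permutation p was 0.0286, the smallest that 4 against 4 livers allow. The change was 0.98 without MTAP+/- replicate 4 and 1.07 without MTAP+/+ replicate 3. As in any whole tissue, more cells of a type and more RNA per cell cannot be told apart.

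The other FOS genes had no probe set with an unadjusted p under 0.05 by limma. Fosb, whose product and its truncated form also pair with JUN proteins, had signals of 2.34 to 2.86 in MTAP+/- and 2.52 to 2.94 in MTAP+/+ livers. All 8 values were below the array medians of 3.91 to 3.97, where RMA signals carry little information, and the groups overlapped (log2 change -0.02, 95% interval -0.32 to 0.28). Fosl2, which encodes FRA2, a FOS protein without the strong activation domain of FOS, was read by a pair of probe sets of opposite sign. At 1422931_at the signals were 5.51, 5.56, 5.34 and 5.59 in MTAP+/- replicates 1 to 4, against 5.97, 5.68, 5.46 and 5.71 in MTAP+/+ replicates 1 to 4. Of the MTAP+/+ livers only replicate 3 lay within the range of the MTAP+/- livers, and the log2 change was -0.20 (95% interval -0.47 to 0.06, limma adjusted p = 0.691). At 1437247_at the change was 0.11 (95% interval -0.25 to 0.47, limma adjusted p = 0.899).

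Among the JUN probe sets, that of Junb had the largest log2 change. JUNB is an AP-1 subunit that is a weaker activator than JUN at many sites and can restrain it. Its signals were 5.71, 6.09, 6.41 and 6.41 in MTAP+/- replicates 1 to 4, against 5.40, 5.87, 5.47 and 5.70 in MTAP+/+ replicates 1 to 4. The overlap came from MTAP+/- replicate 1, which lay below MTAP+/+ replicate 2. The means were 6.15 ± 0.33 and 5.61 ± 0.22 (SD, n = 4 each), a log2 change of 0.54 with a 95% interval of 0.17 to 0.92, or 1.46-fold (limma, unadjusted p = 0.00881, adjusted p = 0.413). The exact permutation p was 0.0571.

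Jun, which encodes the central partner of the FOS proteins, lies on chromosome 4, as Mtap does. Its signals at 1417409_at were 6.08, 5.66, 5.87 and 5.21 in MTAP+/- replicates 1 to 4, against 5.87, 6.49, 5.76 and 6.04 in MTAP+/+ replicates 1 to 4. The groups overlapped widely, and the lowest liver was MTAP+/- replicate 4, which had the highest signals of Fos and Egr1. The log2 change was -0.33 (95% interval -0.78 to 0.11, limma adjusted p = 0.705). The other Jun probe set, 1448694_at, was at 0.06 (95% interval -0.32 to 0.45), with MTAP+/- replicate 1 highest of all livers at 6.32 and MTAP+/- replicate 2 lowest at 5.47.

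Jund encodes a JUN protein that is present in resting cells and responds little to stimuli. At its brighter probe set, 1449117_at, the signals were 9.32, 9.78, 9.26 and 9.25 in MTAP+/- replicates 1 to 4, against 9.66, 9.40, 9.24 and 9.08 in MTAP+/+ replicates 1 to 4. The groups overlapped and the log2 change was 0.06 (95% interval -0.29 to 0.40, limma adjusted p = 0.952). At 1440265_at the signals were 4.25, 4.18, 4.15 and 4.28 in MTAP+/- replicates 1 to 4, against 4.41, 4.28, 4.56 and 4.42 in MTAP+/+ replicates 1 to 4. Here every MTAP+/- liver was below every MTAP+/+ liver, though replicate 4 of MTAP+/- and replicate 2 of MTAP+/+ nearly touched. The log2 change was -0.20 (95% interval -0.41 to 0.003, limma, unadjusted p = 0.0532, adjusted p = 0.602; exact permutation p = 0.0286). This probe set lay close to the array medians.

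Egr1, a zinc finger factor induced through SRF and the MAP kinase ERK, spread widely among MTAP+/- livers and little among MTAP+/+ livers. Its signals were 8.55, 10.16, 9.20 and 10.22 in MTAP+/- replicates 1 to 4, against 8.63, 8.42, 8.40 and 8.64 in MTAP+/+ replicates 1 to 4. Replicates 2, 3 and 4 of MTAP+/- were above all MTAP+/+ livers, and replicate 1 lay among them. The means were 9.53 ± 0.80 and 8.52 ± 0.13 (SD, n = 4 each), a log2 change of 1.01 with a 95% interval of 0.31 to 1.71, or 2.01-fold (limma, unadjusted p = 0.00928, adjusted p = 0.416). The exact permutation p was 0.0857. The change was 0.80 without MTAP+/- replicate 2, 0.78 without replicate 4 and 1.34 without replicate 1.

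The remaining genes encode a short-lived nuclear regulator (Ier2), a stress-induced protein that affects cell survival (Ier3) and a MAP kinase phosphatase (Dusp1). Ier2 signals were 6.78, 7.58, 7.06 and 7.37 in MTAP+/- replicates 1 to 4, against 7.32, 7.57, 7.10 and 7.15 in MTAP+/+ replicates 1 to 4. The groups overlapped throughout, with a log2 change of -0.09 (95% interval -0.47 to 0.30, limma adjusted p = 0.931). The highest and the lowest Ier2 signals were both in MTAP+/- livers.

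Ier3 had tight groups. Its signals were 4.34, 4.39, 4.41 and 4.29 in MTAP+/- replicates 1 to 4, against 4.07, 4.19, 3.9996 and 3.89 in MTAP+/+ replicates 1 to 4. The groups did not overlap, and the difference was small in size, with a log2 change of 0.32 and a 95% interval of 0.12 to 0.53, or 1.25-fold (limma, unadjusted p = 0.00596, adjusted p = 0.390; exact permutation p = 0.0286). The MTAP+/+ signals lay close to the array medians, where RMA is known to compress differences.

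Dusp1 had the lowest log2 change of the 13 probe sets and the widest interval. Its signals were 9.41, 7.26, 9.23 and 8.63 in MTAP+/- replicates 1 to 4, against 8.74, 9.72, 9.35 and 9.10 in MTAP+/+ replicates 1 to 4. The groups overlapped, and MTAP+/- replicate 2 was far below every other liver. The log2 change was -0.60 with a 95% interval of -1.50 to 0.30 (limma adjusted p = 0.744; exact permutation p = 0.371). Without MTAP+/- replicate 2 it was -0.14.

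**Figure D2:**
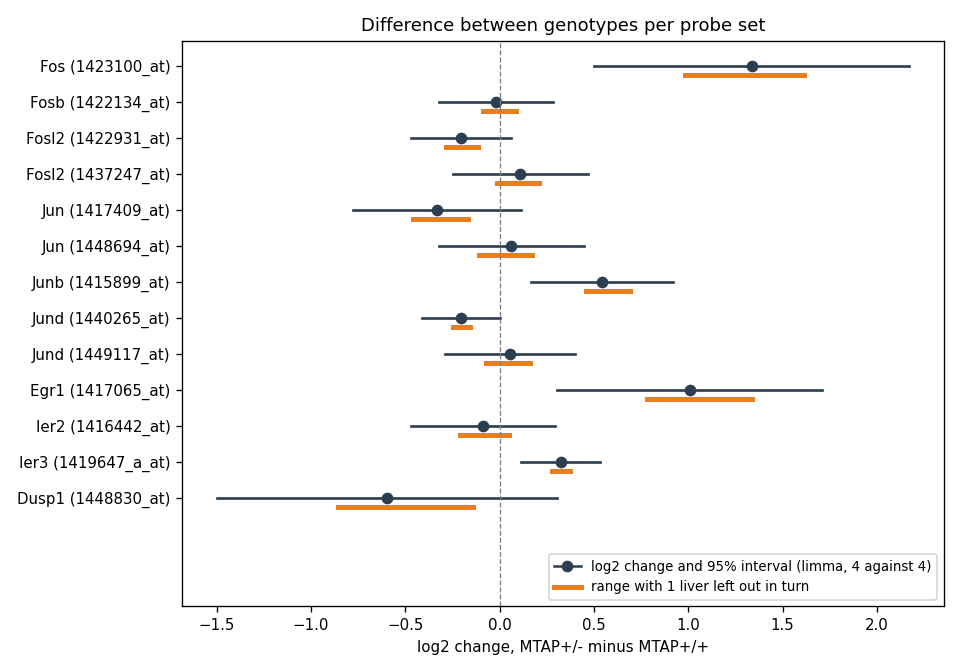
Log2 change (horizontal axis, MTAP+/- minus MTAP+/+) of each probe set with its 95% interval from limma (points and thin lines, n = 4 livers per genotype) and, in orange, the range of the change when 1 liver at a time was left out. The intervals of Fos, Junb, Egr1 and Ier3 lie above 0, Dusp1 moves from -0.86 to -0.14 with the liver left out, and no probe set passes after adjustment.

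The 4 genes with an unadjusted p under 0.05 did not order the MTAP+/- livers alike. Replicate 4 was the highest of all 8 livers for Fos and Egr1, though replicate 2 was close to it for Egr1 (10.22 and 10.16). For Junb replicates 3 and 4 were level at the top (6.41 each). For Ier3 replicate 4 was the lowest of the MTAP+/- livers. Replicate 2 had rank 2 of the 8 livers for Egr1 and Ier3, rank 3 for Junb and rank 4 for Fos, counted from the highest. Replicate 1 had rank 3 for Fos and Ier3, rank 5 for Junb and rank 6 for Egr1. Among MTAP+/+ livers, Egr1 spanned from 8.40 to 8.64 while Fos spanned from 3.96 to 5.10. Dusp1 was lowest in MTAP+/- replicates 2 and 4, which had the highest Egr1 signals.

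Macrophage markers varied over the same livers. The summed linear signal of 12 macrophage and Kupffer cell marker genes was 4705, 6123, 4985 and 6062 in MTAP+/- replicates 1 to 4, against 4997, 4189, 4621 and 4125 in MTAP+/+ replicates 1 to 4. It was highest in MTAP+/- replicates 2 and 4, the livers with the highest Egr1 and the lowest Dusp1 signals, and the genotypes overlapped (exact permutation p = 0.0857). Of the 12 genes, 10 had higher means in MTAP+/- livers, and all 12 had mean signals above the median of all probe sets. The markers went in both directions in MTAP+/- replicate 2. Chosen after their values were seen, Marco (9.97), Adgre1 (8.93), Cd68 (7.41), Mpeg1 (9.64), Lyz2 (9.70) and the resident Kupffer cell marker Timd4 (5.98) were highest there of all 8 livers, and the resident Kupffer cell markers Clec4f (7.06) and Vsig4 (8.20) were lowest there. The summed signal of 7 neutrophil markers was 377 in MTAP+/- replicate 4, the liver with most Fos, and 135 to 172 in the other MTAP+/- livers, against 127 to 169 in MTAP+/+ livers. In MTAP+/- replicate 4 most of this sum came from S100a9 (log2 signal 7.66) and S100a8 (6.45). Of the 7 genes, 4 had higher means in MTAP+/- livers, 2 were under the median level of all probe sets, and the sums overlapped between genotypes (exact permutation p = 0.257). T, B and NK cell markers summed to 182 to 213 in MTAP+/- and 174 to 198 in MTAP+/+ livers. The exact permutation p was 0.0571. Cholangiocyte markers went the other way, with sums of 93.8 to 110 in MTAP+/- and 103 to 122 in MTAP+/+ (exact permutation p = 0.0857). Under the median level of all probe sets were 3 of the 8 T, B and NK cell genes and 2 of the 5 cholangiocyte genes. Stellate, sinusoidal endothelial and blood cell marker sums also overlapped between genotypes (exact permutation p from 0.143 to 0.743). The part of any of these cell types in the signals of Fos, Egr1 and Dusp1 was not tested.

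**Figure D3:**
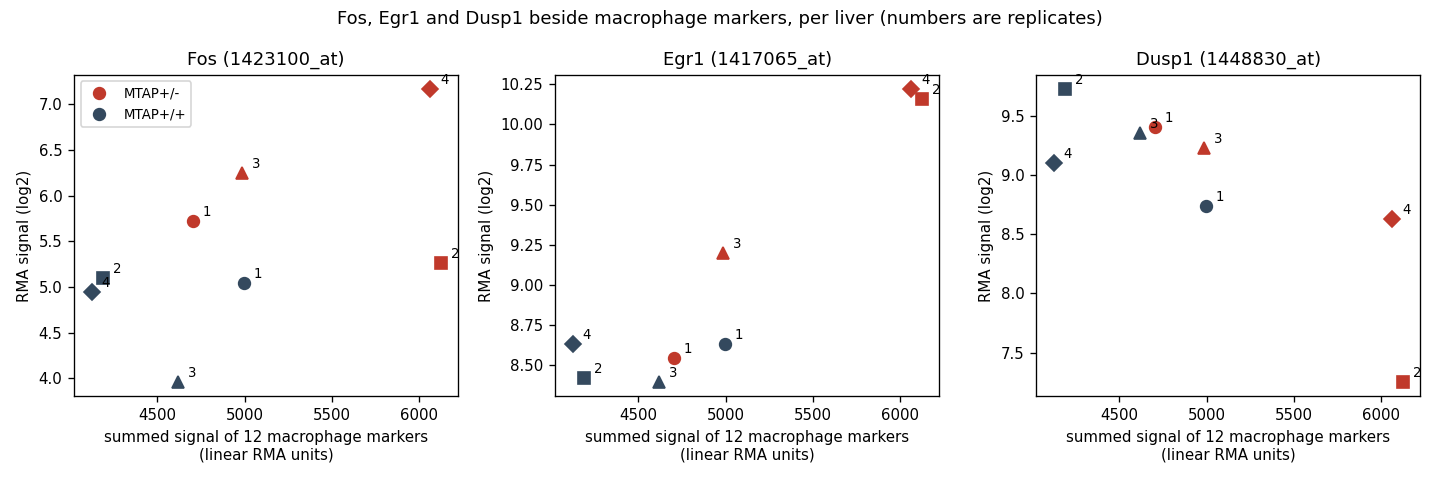
RMA signals (log2, vertical axis) of Fos, Egr1 and Dusp1 against the summed linear signal of 12 macrophage markers (horizontal axis) in 4 MTAP+/- livers (red) and 4 MTAP+/+ livers (blue), labelled by replicate number. MTAP+/- replicates 2 and 4, at 6123 and 6062, have the highest Egr1 and the lowest Dusp1 signals, while Fos is 5.26 in replicate 2 and 7.16 in replicate 4.

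Other immediate early genes lay on both sides of 0. In a list of 40 such genes with 84 probe sets, 0 passed after adjustment, 5 had an unadjusted p under 0.05 and a higher mean in MTAP+/- livers, and 4 had one and a lower mean (limma, median log2 change 0.07). Of all 45037 probe sets, 2055 (4.56%) had one and a higher mean, and 1734 had one and a lower mean. Ccn1, a secreted matrix protein, had the smallest p at 1438133_a_at, with 4.95, 4.9985, 4.98 and 5.19 in MTAP+/- replicates 1 to 4, against 5.66, 6.16, 5.49 and 6.19 in MTAP+/+ replicates 1 to 4 (log2 change -0.84, limma adjusted p = 0.158). Nfkbiz, an inducible partner of NF-kB, had signals at 1417483_at of 5.25, 6.26, 6.66 and 7.44 in MTAP+/- replicates 1 to 4, against 4.07, 5.63, 4.12 and 4.03 in MTAP+/+ replicates 1 to 4 (log2 change 1.94, limma adjusted p = 0.260). The genotypes did not overlap at this Ccn1 probe set or at 1416039_x_at (-0.68), while they overlapped at the dim probe sets 1457823_at (-0.09) and 1442340_x_at (0.05). At Nfkbiz they overlapped through MTAP+/- replicate 1 and MTAP+/+ replicate 2, and its other probe sets were at 0.40 and 0.29. Klf6, a zinc finger factor, was at 0.46 at 1447448_s_at (limma adjusted p = 0.364), where all signals were under the array medians, and its 5 probe sets ranged from -0.01 to 0.46.

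Partners, upstream factors and inhibitors of the 10 genes were not past the threshold either. The related lists share some genes, among them Atf3, Maff, Fosl1, Egr2, Egr3, Srf, Errfi1 and Sgk1. Probe sets of a shared gene are counted in each of its lists. Of 25 probe sets for 12 other AP-1 relatives, 0 passed and 1 had an unadjusted p under 0.05, a probe set of Maf (0.71, limma adjusted p = 0.202), while the other Maf probe sets were at 0.15, 0.07, 0.02, -0.29 and -0.30. Maff was at 0.20 and the 5 probe sets of Atf2 ranged from -0.10 to 0.16, none past the threshold. Of 9 probe sets for other EGR genes and the NAB proteins that repress EGR1, 0 passed and 0 had an unadjusted p under 0.05 by limma. The 3 probe sets of Nab1 ranged from 0.11 to 0.29, Egr4 was at -0.19, and the probe sets of Egr2 were at -0.15 and 0.17 with signals under the array medians.

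Of 23 probe sets for SRF, its cofactors and CREB1, 0 passed, 1 had an unadjusted p under 0.05 in the higher direction and 2 in the lower direction by limma. Creb1, which binds the motif shown for Fos and Dusp1, was at 0.56 at 1428755_at (limma adjusted p = 0.394), and its 6 probe sets ranged from -0.29 to 0.56. Elk3, a ternary complex factor, was at -0.33 at 1445886_at, with all signals under the array medians, and at 0.22, 0.13 and 0.04 at its other probe sets. Mrtfb, an actin-regulated SRF cofactor, was at -0.22, 0.12 and -0.05. Of 45 probe sets for 13 upstream kinases, RAS proteins and EGFR, 0 passed, 7 had an unadjusted p under 0.05 in the higher and 2 in the lower direction. Over all 45037 probe sets by limma, 2055 (4.56%) had one in the higher and 1734 in the lower direction. Mapk8, the kinase JNK1 that phosphorylates JUN, was at 4.47, 4.27, 4.16 and 3.71 in MTAP+/- replicates 1 to 4, against 3.06, 2.94, 3.27 and 3.25 in MTAP+/+ replicates 1 to 4 at 1437045_at. All MTAP+/- livers were above all MTAP+/+ livers there (log2 change 1.02, limma adjusted p = 0.116). The MTAP+/+ signals and that of MTAP+/- replicate 4 lay under the array medians. The other Mapk8 probe sets were at 0.27, 0.25 and 0.18, and at -0.28 at 1420931_at, where all signals were under the array medians. Rps6ka3, a kinase that acts on CREB1 and FOS, was at most at 0.54 (limma adjusted p = 0.257) and at least at 0.04 over its 3 probe sets, and Nras ranged from 0.02 to 0.34 (limma adjusted p = 0.345 at the highest).

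Of 42 probe sets for other MAP kinase phosphatases and feedback inhibitors, 0 passed, 4 had an unadjusted p under 0.05 in the higher direction and 1 in the lower direction by limma. Spred1, an inhibitor of RAS signalling, was at 0.40 at 1423160_at and ranged from -0.01 to 0.59 over its 8 probe sets, Dusp16, a phosphatase of JNK and p38, was at 0.32 and 0.33, and Spry1, another inhibitor of receptor signalling, was at -0.30, with adjusted p of 0.437 or more. Of all 45037 probe sets, 2055 had an unadjusted p under 0.05 in the higher direction and 1734 in the lower direction by limma. Dusp1 is also induced by glucocorticoids. Among 22 probe sets of 11 glucocorticoid-induced genes 0 passed, 2 had an unadjusted p under 0.05 in the higher direction and 7 in the lower direction. The higher ones were the metallothioneins Mt1 (3.15, limma adjusted p = 0.181) and Mt2 (2.52, limma adjusted p = 0.304). Mt1 had a further probe set at 0.30. The lower ones all belonged to Tsc22d3, Zbtb16 and Cdkn1a. Over all their probe sets, Zbtb16 ranged from -0.74 to -0.32 and Cdkn1a from -0.78 to -0.66. No probe set of Fkbp5, Sgk1, Tat, Per1, Pck1 or Lcn2 had an unadjusted p under 0.05 by limma. Fkbp5 ranged from -0.03 to 0.10 and Pck1 from 0.13 to 0.29. Sgk1 was at -0.08, Tat at 0.07 and Per1 at 0.37, and Lcn2 had a higher mean in MTAP+/- livers. Tsc22d3, which encodes the glucocorticoid-induced leucine zipper, was at 5.82, 6.19, 6.48 and 6.45 in MTAP+/- replicates 1 to 4, against 6.98, 6.64, 7.72 and 7.01 in MTAP+/+ replicates 1 to 4 at 1425281_a_at. The genotypes did not overlap there (log2 change -0.85, limma adjusted p = 0.331), but they overlapped at the other Tsc22d3 probe sets, which were at -0.74, -0.45 and -0.17.

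**Figure D4:**
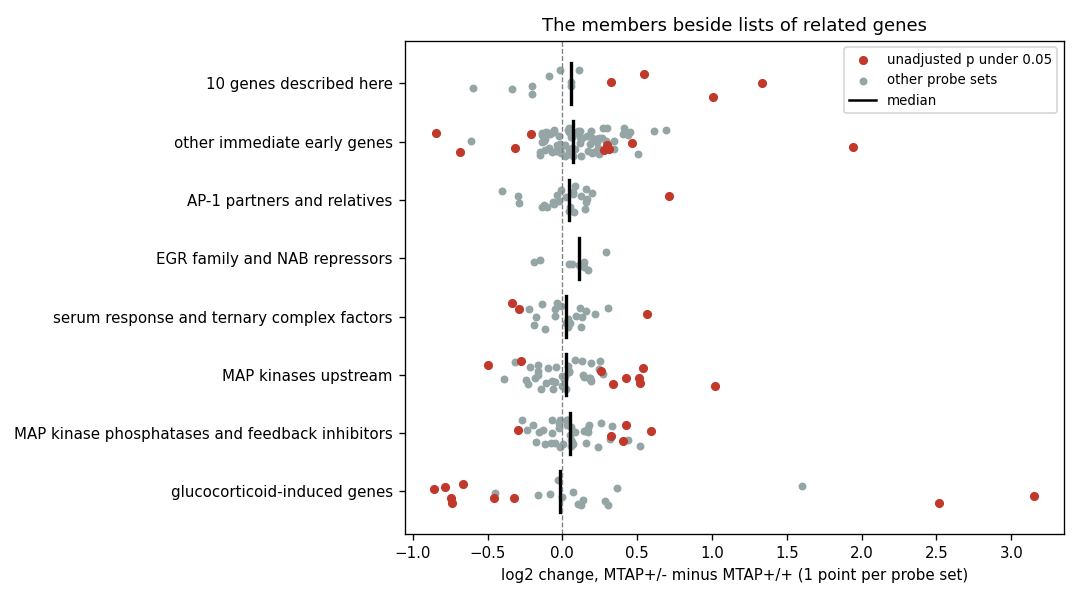
Log2 change (horizontal axis, MTAP+/- minus MTAP+/+) of every probe set of the 10 genes and of 7 related lists, 1 point per probe set, red where the unadjusted limma p is under 0.05, with a black line at each list's median. The medians of the 10 genes (0.06) and of other immediate early genes (0.07) lie near 0, and the points spread to both sides.

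Genes whose profile over the 8 livers was nearest to Fos, Egr1 and Dusp1 were found by the root mean square difference between signals centred on each probe set's own mean. Nearest to Fos, whose own spread was 0.897 log2 units, were Vcam1, a leukocyte adhesion molecule (0.416), the chemokine genes Cxcl1 (0.457) and Ccl2 (0.467), and Morc3 (0.504). Nearest to Egr1, with a spread of 0.709, were Icam1, another adhesion molecule (0.190), Oxct1 (0.288), Arhgap6 (0.316) and Clec4a3, a lectin of myeloid cells (0.326). Nearest to Dusp1, with a spread of 0.714, were G0s2, an inhibitor of triglyceride lipolysis (0.231), Sdr9c7 (0.266), Nlrp12 (0.309) and Plscr2 (0.318). These are the closest of all annotated probe sets over 8 livers and carry no test.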

How the data were processed

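The authors deposited log2 signals per probe set made with RMA (background correction, quantile normalisation and summary of probes), as the submitters' processing notes name RMA. No version or settings of RMA are named there. From the values the scale is log2, and array medians ran from 3.91 to 3.97. No detection calls were used, and the number of arrays limits the precision. After 64 control probe sets were left out, 45037 were tested, of which 34945 had 1 symbol in the platform annotation, 932 several and 9160 none. Of those with 1 symbol, 34741 matched a RefSeq gene by ID and 0 symbols changed.

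MTAP+/- and MTAP+/+ livers were compared with limma 3.58.1 (lmFit, eBayes, two-sided, genotype as the sole term) in R 4.3.3, with Benjamini-Hochberg adjustment over all 45037 probe sets and a threshold of 0.05. Single probe sets were also compared by exact two-sided permutation over 70 assignments. Nothing says the livers came from separate litters, so p-values measure the spread between these samples. The 10 genes and the lists were chosen with earlier results of these data known. Named were all probe sets of the 10 genes, Mtap, up to 3 genes of smallest p in each related list and the 4 nearest profiles of Fos, Egr1 and Dusp1. Further single probe sets of these genes, S100a8, S100a9 and 8 macrophage markers (Marco, Adgre1, Cd68, Mpeg1, Lyz2, Timd4, Clec4f and Vsig4) were added after their values were seen. The remaining glucocorticoid-induced genes were also added then. Alternatives were moderation with trend, a second quantile normalisation, weights for arrays, centring, replicate number as a block, filters on dim or cross-hybridising probe sets, 1 value per gene, the permutation test and each liver left out.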

Additional observations from a re-analysis of the deposited data

Results flagged for a closer look

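In 3 of the 26 groups of 4 livers, 1 liver lay far from the others of its genotype by Dixon's gap test. Such a gap is met by chance in about 5% of groups. For Fos the liver was MTAP+/+ replicate 3, with a signal of 3.96 while the others of its genotype lay between 4.95 and 5.10. Without it the log2 change of Fos was 1.07 in place of 1.34. The same liver was lowest for Fosl2 at 1437247_at, with 4.39, and without it that change was 0.02. For Jund at 1449117_at the liver was MTAP+/- replicate 2, with 9.78, and without it the change was -0.07.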

How the results depend on the processing

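The count of member probe sets past the threshold was 0 under each of 18 alternatives, and 3 to 5 had an unadjusted p under 0.05. Where 5 did, the added probe set was lower in MTAP+/- livers, namely Jund at 1440265_at, Jun at 1417409_at or Fosl2 at 1422931_at. Under the permutation test the 3 were Fos, Ier3 and Jund at 1440265_at, the last of them lower in MTAP+/- livers. Over these alternatives the log2 change was 0.98 to 1.62 for Fos (adjusted p 0.169 to 0.663), 0.78 to 1.34 for Egr1 (0.272 to 0.754), 0.46 to 0.69 for Junb (0.251 to 0.776), 0.28 to 0.37 for Ier3 (0.277 to 0.685) and -0.86 to -0.14 for Dusp1 (0.646 to 0.903). In 216 of 226 comparisons with the main fit a probe set or gene kept its sign, and the 10 exceptions were all near 0. Moderation with trend, the replicate block, the filters on probe sets and the permutation test leave the log2 change itself unchanged. The sign could not turn in those comparisons, so the 216 overstate how firm the signs are. Fosb was at 0.0012 with array weights, and Jund was at -0.073 with its probe sets averaged. With 1 liver left out, Fosb ran from -0.088 to 0.086, Fosl2 at 1437247_at from -0.016 to 0.21, Ier2 from -0.21 to 0.051, Jun at 1448694_at from -0.11 to 0.17 and Jund at 1449117_at from -0.070 to 0.16. Over all features, the 16 called probe sets became 9 called genes with the brightest probe set per gene, 4 with probe sets averaged per gene, 0 with the permutation test, whose smallest possible p did not pass after adjustment, and 5 to 21 with 1 liver left out. With the replicate number as a block 25 were called, and 0 of the member probe sets. Same-numbered livers correlated in their deviations from the genotype means by -0.07, 0.22, 0.005 and 0.23, and not every liver correlated best with its own number, so the number was not taken as a pairing. Signals under the array medians (Fosb) or close to them (Ier3, Jund at 1440265_at) limit what those probe sets can show.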
